A study of Mus musculus with 13 samples.

Results

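Interferon-stimulated and antiviral genes were followed across normal small intestinal epithelium and intestinal adenomas of mice. The set held 43 genes chosen by name, and each was read on the brightest probe set that carried its symbol and no other. Of these, 39 genes were measured, among 21789 probe sets with exactly 1 gene symbol. Isg15, Gbp2 and Igtp lay only on probe sets shared with other symbols and Ifi44 on none of the named ones, so that these 4 genes have no value here. All animals were Apc mutant mice crossed with mice that carry transgenes for FPs, an abbreviation the labels leave unexplained. There were 6 arrays of normal epithelium with low FP expression (FP_lo), 4 of normal epithelium with high FP expression (FP_hi) and 3 of adenomas (Adenoma), each an Affymetrix Mouse Gene 1.0 ST array. Normal epithelium lay next to adenomas, and its crypts were drawn into glass capillaries. The sources used here do not give the promoter and cell type that drive the FPs, the kind of Apc mutation, the age and sex of the animals, or which arrays share an animal. P-values therefore measure the spread between these arrays, which may in part be technical. In the title, the study is placed as one of expression signatures of aging that come ahead of intestinal tumours.

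Interferons are secreted proteins that warn cells of infection. Type I and type III interferons signal through receptor-bound JAK kinases to a complex that contains STAT2 and IRF9 and binds the interferon-stimulated response element (ISRE) in front of its target genes, while interferon gamma acts on the gamma-activated site (GAS). The targets include proteins that block virus entry at membranes, bind or degrade viral RNA, sense nucleic acids and load peptides on MHC class I. In the gut epithelium these genes have a resting level that microbes and viruses raise, and Ifitm genes have also been described as targets of Wnt signalling, the pathway that loss of Apc switches on.

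The DNA in front of the genes that the results turn on shows how differently they are built. RefSeq promoter windows of GRCm38.p6, each 300 bases long with 250 of them before the transcription start, were found for 35 of the 43 genes (all but Mx1, Mx2, Oas2, Usp18, Dhx58, Zbp1, Iigp1 and Parp14). ISRE letters, searched on both strands as GAAA, any 2 bases and GAAA, were present in the windows of 19 of these 35 genes (54.3%), against 3.99% of all 27025 genes with a window. GAS letters, searched as TTCNNNGAA, which is its own reverse complement, were present in 12 of 35 (34.3%), against 9.55% of all genes. In the stretches that follow, written 5′ to 3′ on the strand of the gene, capitals mark ISRE letters. Ifit1 and Ifit3 carry a pair of them on the opposite strand, Ifitm2 carries 1, and neither Ifitm1 nor the stretch shared by Tap1 and Psmb9, which are transcribed away from each other, carries any.
Ifit1, chr19:34640777-34640821, plus strand, bases -112 to -68 from the start: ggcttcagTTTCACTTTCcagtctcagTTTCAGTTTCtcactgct
Ifit3, chr19:34583365-34583424, plus strand, bases -164 to -105: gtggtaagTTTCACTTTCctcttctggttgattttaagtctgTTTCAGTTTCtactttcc
Ifitm1, chr7:140967996-140968075, plus strand, bases -80 to -1: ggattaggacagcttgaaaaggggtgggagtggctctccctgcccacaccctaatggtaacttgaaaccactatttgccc
Ifitm2, chr7:140955962-140956041, minus strand, bases -80 to -1: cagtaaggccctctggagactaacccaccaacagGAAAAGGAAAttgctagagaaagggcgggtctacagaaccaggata
Tap1 and Psmb9, chr17:34187331-34187555, plus strand, bases -225 to -1 from the start of Tap1: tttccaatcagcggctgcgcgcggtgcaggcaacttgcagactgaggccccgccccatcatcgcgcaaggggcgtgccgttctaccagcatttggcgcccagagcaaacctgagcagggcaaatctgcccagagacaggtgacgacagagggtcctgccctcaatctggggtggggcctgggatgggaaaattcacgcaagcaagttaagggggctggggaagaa

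All levels are the deposited log2 values, and a difference is one of group means on that scale with its standard error from limma. A gene counted as changed when its p-value, adjusted by Benjamini and Hochberg over 23410 probe sets, was under 0.05. FP_hi replicate 1 stood apart from the other arrays, with an SD of 1.21 over its values against 1.89 to 2.10 elsewhere and a median correlation with the others of 0.762. In that array bright genes read lower and dim genes higher, and it was the highest normal array for 35.1% of all probe sets. Xist, an RNA of female cells, was high in all 3 adenoma arrays, in FP_hi replicate 4 and in FP_lo replicate 6 and low in the other 8, so that sex and tumour state were only partly separable. The epithelial marker Epcam had mean levels of 9.20 in FP_lo, 8.71 in FP_hi and 9.28 in adenomas. The mean over 7 epithelial markers was 8.85 to 9.63 in FP_lo arrays and 8.76 to 9.62 in adenomas. In FP_hi arrays it was 6.70 to 9.67, lowest in replicate 1. Single markers differed by -0.73 to 1.36 between adenomas and normal epithelium. Median differences there were -1.28 for Paneth cell, -0.26 for enterocyte and 0.70 for goblet cell markers. Between FP_hi and FP_lo they were -1.41, 0.99 and -0.81. FP_hi replicate 1 stood apart here. Its mean Paneth cell marker level was 7.425, against 10.42 to 11.55 in the other FP_hi arrays and 10.65 to 11.8 in FP_lo. Its mean goblet cell marker level was 5.498, against 9.715 to 10.4 and 9.288 to 10.19. Marker differences without that array were not computed.

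Between adenomas and normal epithelium the interferon genes differed in both directions, and whether they moved as a set was not tested. In adenomas against the average of the FP_hi and FP_lo means, 1 of the 39 genes rose, Ifitm1 (2.56%, where 0.884% of all probe sets rose), and 0 fell (0.0256% of all). The median difference over the 39 genes was 0.08, with 21 above 0, against a median of -0.09 over all probe sets, 38.1% of which were above 0. At an unadjusted p under 0.05, 6 of the 39 passed (15.4%, against 10.6% of all): Ifitm1, Ifit1, Ifit2 and Parp14 higher in adenomas and Psmb8 and Tap1 lower. Adenoma arrays lay apart from all 10 normal arrays for 2 genes, Ifitm1 above them and Tap1 below them (5.13%, against 3.97% of all probe sets).

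**Figure D1:**
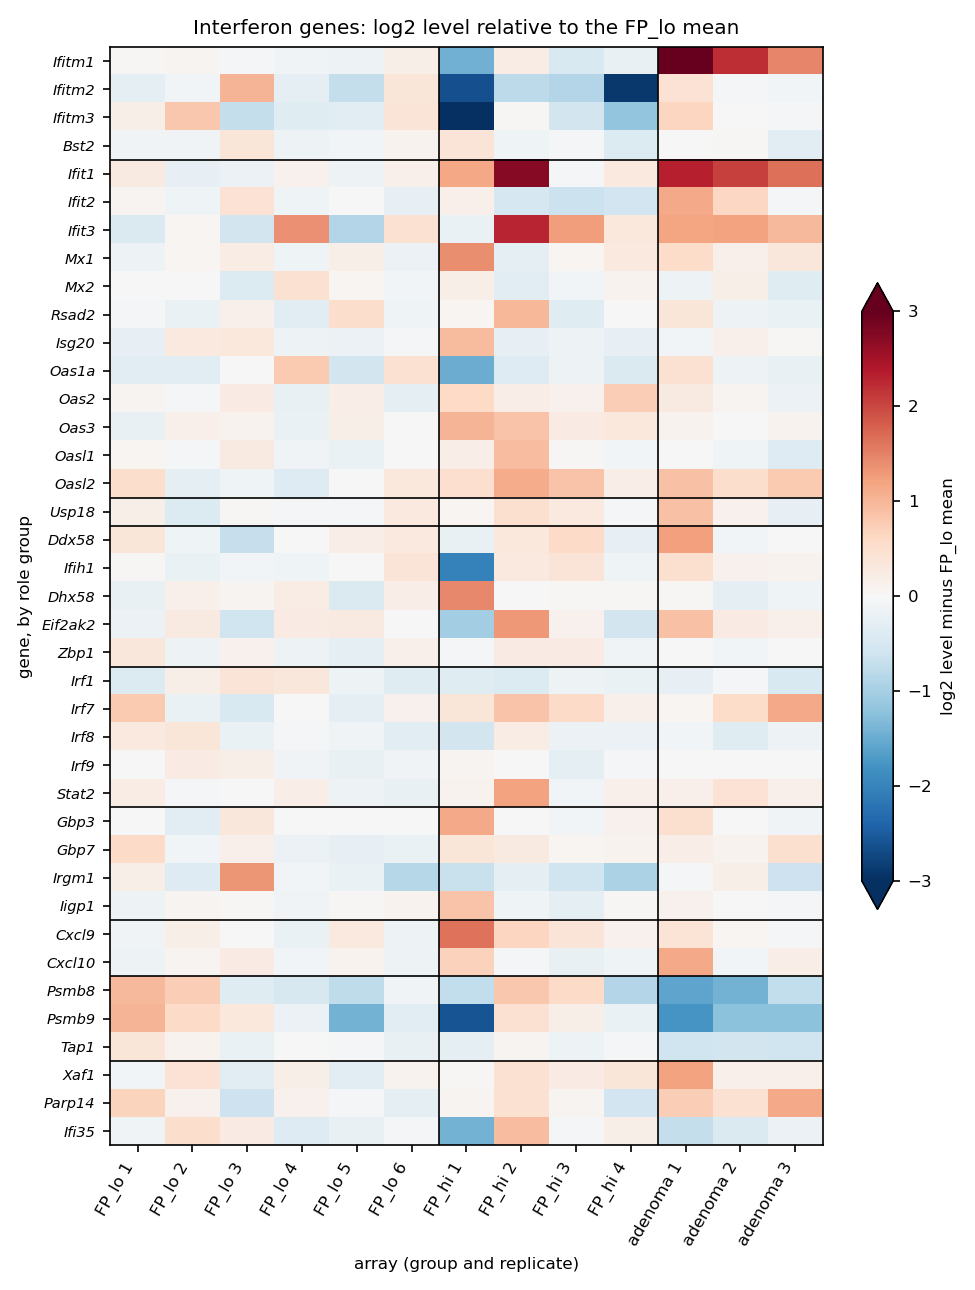
Log2 level of each of the 39 measured genes (rows, in role groups split by lines) in each of 13 arrays (columns), as the difference from the FP_lo mean of that gene. Colours are cut at 3 in either direction. Ifitm1 is red in all 3 adenoma arrays, Ifit1 in those arrays and in FP_hi replicate 2, and Psmb8 and Psmb9 are blue in the adenoma arrays.

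Among the restriction factors at membranes, Ifitm1 rose in adenomas. It belongs to a family of small proteins of the cell surface and endosomes that hinder the fusion of enveloped viruses. In FP_lo its level was 5.29 at the lowest, 5.43 at the median and 5.62 at the highest. The FP_hi arrays read 4.00, 5.66, 4.98 and 5.21, and the adenoma arrays 8.63, 7.65 and 6.91. All adenoma arrays were therefore above all normal ones, and the normal groups overlapped. Means were 5.44 ± 0.12 (SD, n = 6) in FP_lo, 4.96 ± 0.70 (SD, n = 4) in FP_hi and 7.73 ± 0.86 (SD, n = 3) in adenomas, a 5.77-fold difference between adenomas and normal epithelium (2.53 ± 0.34 SE, limma adjusted p = 0.0026).

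A second probe set of Ifitm1, built on the same transcripts, showed a wider gap. It read 3.39 to 4.28 over the 10 normal arrays and 10.11, 8.78 and 7.93 in the adenoma arrays. The difference there was 5.12 ± 0.34 (SE, adjusted p = 4.54e-06), and the mean over both probe sets gave 3.82. On the brighter probe set the call depended on the model. The replicate number as a block over all groups is a pairing that passed its check for FP_hi and adenoma arrays only. Those same-numbered arrays differ in Xist, so the block need not stand for shared animals. With the block the difference was 2.56 with an adjusted p of 0.0753. With a covariate for high Xist the difference was 2.31 with an adjusted p of 0.123 (2.88e-05 to 0.123 over all 20 alternatives). The second probe set passed the threshold in all 17 alternatives run on it, with adjusted p-values of 1.05e-06 to 0.00158. The pair of normal arrays with high Xist read 5.21 and 5.62 on the brighter probe set, inside the range of the other normal arrays.

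Against each normal group alone Ifitm1 was again the only one of the 39 genes to pass. It was 2.29 ± 0.36 (SE) higher than in FP_lo (adjusted p = 0.0101), where 0.534% of all probe sets rose. This call was lost without Adenoma replicate 1 (1.84, adjusted p = 0.0537) and without Adenoma replicate 2 (2.33, adjusted p = 0.0532), within a range of 8.08e-05 to 0.31 over the alternatives. Against FP_hi it was 2.76 ± 0.39 (SE) higher (adjusted p = 0.00502), where 0.748% of all rose. With the block the adjusted p-values of these comparisons were 0.201 and 0.0876, and with only the FP_hi and adenoma arrays in the fit the second was 0.162 (0.00015 to 0.162 over the alternatives). The adenoma comparisons share their adenoma arrays and are not independent of each other. At an unadjusted p under 0.05, 8 of the 39 genes passed against FP_lo (20.5%, against 7.45% of all probe sets): Ifit1, Ifit2, Ifitm1, Oasl2 and Parp14 higher in adenomas and Psmb8, Psmb9 and Tap1 lower. Against FP_hi there were also 8 (20.5%, against 15.7%), with Ifit2, Ifitm1, Ifitm2, Ifitm3 and Parp14 higher and Oas3, Psmb8 and Tap1 lower. Differences were above 0 for 26 of the 39 genes against FP_lo and for 20 against FP_hi, where 39% and 40.4% of all probe sets were. Adenoma arrays did not overlap FP_lo arrays for 4 genes (10.3%, against 9.31% of all) and FP_hi arrays for 4 (10.3%, against 17.1% of all).

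**Figure D2:**
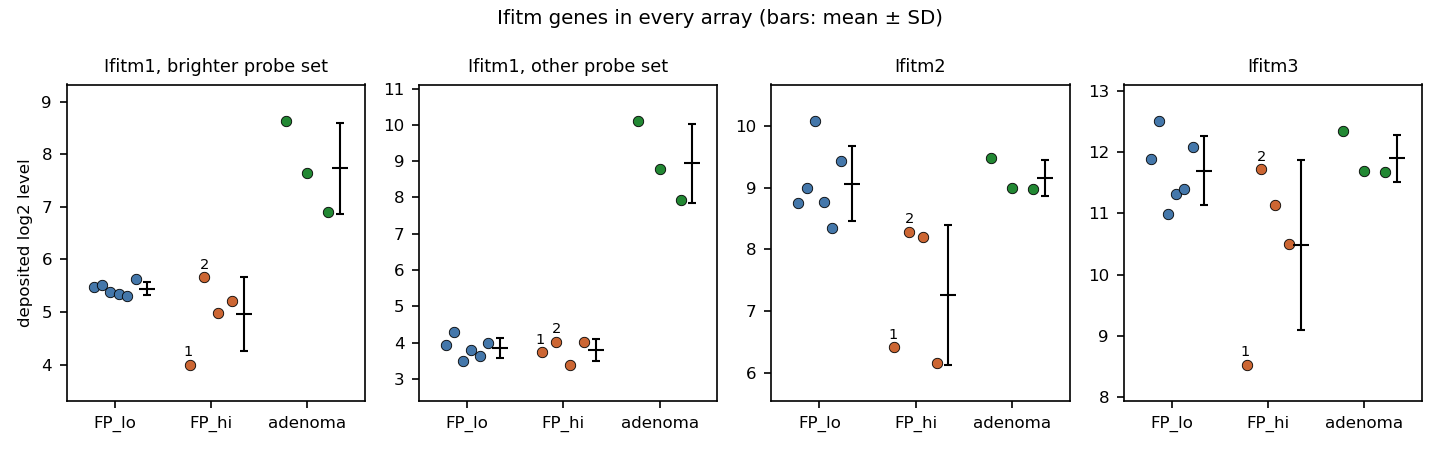
Deposited log2 level of Ifitm1 on both of its probe sets, Ifitm2 and Ifitm3 in each array, by group. Points are arrays, FP_hi replicates 1 and 2 are numbered, and bars give the mean and SD of a group, with an axis of its own for each panel. Adenoma arrays lie above all normal arrays in both Ifitm1 panels, and FP_hi arrays lie below all FP_lo arrays in the Ifitm2 panel.

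Ifitm2 and Ifitm3, which act mainly in endosomes, had another pattern from Ifitm1. Ifitm2 levels in FP_lo were 8.35 at the lowest, 8.88 at the median and 10.08 at the highest, and in FP_hi they were 6.42, 8.29, 8.19 and 6.17. The adenoma arrays read 9.48, 8.99 and 8.97. FP_hi arrays thus lay below all FP_lo arrays, and adenomas lay inside the FP_lo range and above FP_hi. The FP_hi mean was 1.80 ± 0.45 (SE) below the FP_lo mean, which did not pass (adjusted p = 0.219). On its 3 probe sets the difference ran from -2.01 to -1.80, with adjusted p-values of 0.149 to 0.219. Without FP_hi replicate 1 it was -1.51, and FP_hi replicate 4 was as low as replicate 1.

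Ifitm3 read 8.53, 11.72, 11.14 and 10.51 in FP_hi against 10.99 to 12.51 in FP_lo and 11.67 to 12.34 in adenomas. Its FP_hi difference of -1.22 ± 0.51 (SE) did not pass (adjusted p = 0.389), and the groups overlapped. Bst2 encodes tetherin, which holds budding virus particles at the cell surface, and it was nearly level. Its group means were 5.47, 5.41 and 5.37 in FP_lo, FP_hi and adenomas. How far probes of the similar Ifitm genes pick up each other's RNA was not tested.

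Of the 12 RNA-binding and effector genes, 0 passed the adjusted threshold in any of the 4 comparisons. The Ifit genes had the widest differences among these 12. Ifit1 stayed between 3.21 and 3.75 in the 6 FP_lo arrays, with a median of 3.46. It read 4.63, 6.21, 3.41 and 3.77 in FP_hi and 5.81, 5.53 and 5.11 in adenomas. All adenoma arrays were thus above all FP_lo arrays, while FP_hi replicate 2 was above every adenoma. Adenomas were 2.01 ± 0.46 (SE) above FP_lo (adjusted p = 0.0978) and 1.49 ± 0.43 (SE) above the average of the normal means (adjusted p = 0.178).

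Single arrays moved the Ifit1 result in both directions. Without FP_hi replicate 2 the difference from the normal average was 1.78 with an adjusted p of 0.00542 (0.00542 to 0.7 over the alternatives), from FP_lo 2.01 with 0.00349 (0.000571 to 0.488), and from FP_hi 1.54 with 0.0436 (0.0436 to 0.664). Against FP_lo it also passed with array weights (1.96, adjusted p = 0.0147) and in the fit of only those groups (2.01, adjusted p = 0.000571). Without Adenoma replicate 1 the adjusted p-values against FP_lo and the normal average were 0.488 and 0.7. The FP_hi difference from FP_lo was 1.04 ± 0.42 (SE, adjusted p = 0.389) with FP_hi replicate 2 and 0.47 without it.

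Ifit2 and Ifit3 followed only in part. Ifit2 was dim, with group means of 2.91, 2.51 and 3.48 in FP_lo, FP_hi and adenomas and adenoma values of 4.05, 3.54 and 2.84. Its difference from normal epithelium was 0.77 ± 0.24 (SE, adjusted p = 0.233), and it was 0.48 without Adenoma replicate 1. Ifit3 ran from 3.29 to 5.54 in FP_lo, read 3.97, 6.46, 5.42 and 4.48 in FP_hi, and was 5.36, 5.39 and 5.14 in adenomas. The adenoma values were close together but inside the normal range, and the difference of 0.67 ± 0.50 (SE) did not pass (adjusted p = 0.618). Probes of Ifit1 and Ifit3 may also meet RNA of their near copies, which was not tested.

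The oligoadenylate synthetases make the messenger that activates RNase L, and the Oasl proteins are related to them. Oas3 read 3.64 at the lowest, 3.91 at the median and 4.02 at the highest in FP_lo. The FP_hi arrays read 4.88, 4.72, 4.11 and 4.16 and the adenoma arrays 3.97, 3.85 and 3.96. FP_hi arrays lay above all FP_lo and all adenoma arrays, the upper end being replicates 1 and 2. The difference from FP_lo was 0.61 ± 0.17 (SE, adjusted p = 0.257), and 0.47 without replicate 1, with no overlap either way. Oasl2 read 5.65, 5.32 and 5.57 in adenomas against 4.40 to 5.30 in FP_lo and 4.99 to 5.90 in FP_hi. It was 0.73 ± 0.24 (SE) above FP_lo in adenomas (adjusted p = 0.347) and 0.67 ± 0.22 (SE) above it in FP_hi (adjusted p = 0.319).

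For the other effectors no comparison passed. Oas1a, Oas2 and Oasl1 differed between adenomas and normal epithelium by 0.33, -0.16 and -0.32, with adjusted p-values of 0.673, 0.696 and 0.562. Between FP_hi and FP_lo, Oas1a differed by -0.62 ± 0.31 (SE, adjusted p = 0.393), Oas2 by 0.42 ± 0.17 (SE, adjusted p = 0.388) and Oasl1 by 0.27. The lowest Oas1a value, 3.28, was that of FP_hi replicate 1. Mx1 and Mx2, dynamin-like GTPases that trap viral particles, differed by 0.17 and -0.09 in adenomas, and Mx1 by 0.37 in FP_hi, where replicate 1 was highest at 4.23. Rsad2, or viperin, and the exonuclease Isg20 differed by -0.07 and -0.01 in adenomas. The 4 genes Mx1, Mx2, Rsad2 and Isg20 had no group mean above 5.05. Over the 12 effectors the median adenoma difference was 0.08 and the median FP_hi difference 0.32. Their mean level was 4.23 to 4.62 in adenomas, 4.10 to 4.65 in FP_hi and 3.96 to 4.12 in FP_lo.

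**Figure D3:**
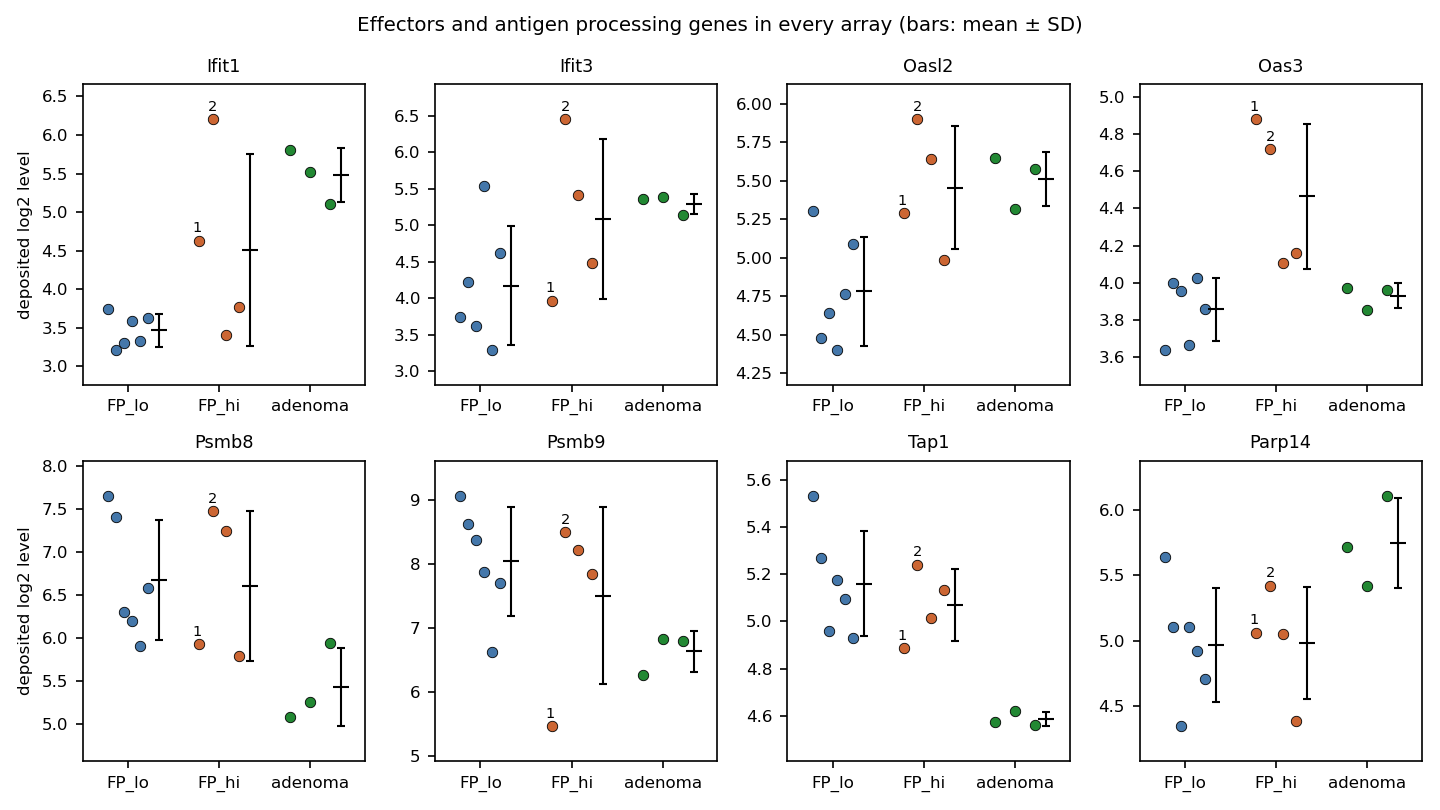
Deposited log2 level of Ifit1, Ifit3, Oasl2, Oas3, Psmb8, Psmb9, Tap1 and Parp14 in each array, by group, with an axis of its own for each gene. Points are arrays, FP_hi replicates 1 and 2 are numbered, and bars give the mean and SD of a group. FP_hi replicate 2 is the highest normal array for Ifit1, Ifit3 and Oasl2, and the 3 adenoma arrays lie below all normal arrays for Tap1.

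Usp18, the protease that removes ISG15 from proteins and restrains the interferon receptor, read 4.62, 3.87 and 3.49 in adenomas. It ran from 3.34 to 4.02 in FP_lo and read 3.81, 4.21, 4.02 and 3.70 in FP_hi. Only Adenoma replicate 1 stood above the normal arrays. The adenoma difference was 0.16 ± 0.22 (SE, adjusted p = 0.747), and the FP_hi difference 0.20 ± 0.21 (SE, adjusted p = 0.609). Without Adenoma replicate 1 the former turned to -0.15, and under quantile normalization the latter turned to -0.012, so that neither has a settled direction.

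The nucleic acid sensors were Ddx58 (RIG-I), Ifih1 (MDA5) and Dhx58 (LGP2), which detect viral RNA, Zbp1, a sensor of Z-form nucleic acids, and Eif2ak2, the kinase PKR that halts translation on double-stranded RNA. Differences between adenomas and normal epithelium ran from -0.32 for Dhx58 to 0.45 for Eif2ak2. None of the 5 passed, where 0.884% of all probe sets rose and 0.0256% fell. Eif2ak2 read 6.71, 6.09 and 6.00 in adenomas, 5.24 to 6.12 in FP_lo, and 4.80, 7.13, 5.96 and 5.30 in FP_hi. The FP_hi arrays spanned the adenoma values on both sides, and the difference of 0.45 ± 0.38 (SE) had an adjusted p of 0.645. Adenoma replicate 1 was the highest adenoma for 4 of these sensors, at 6.24 for Ddx58 and 6.96 for Ifih1.

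Dhx58 had the widest FP_hi difference among the sensors, and it rested on 1 array. It read 4.91, 3.47, 3.50 and 3.50 in FP_hi, 3.03 to 3.68 in FP_lo and 3.50, 3.18 and 3.33 in adenomas. The difference from FP_lo was 0.38 ± 0.27 (SE, adjusted p = 0.466), and 0.026 without FP_hi replicate 1. Ifih1 went the other way in that array, at 4.44 against 6.26 to 6.96 in the other 12.

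The transcription factors of the response differed little on the probe sets used. Irf9 and Stat2, partners in the complex that binds the ISRE, differed between adenomas and normal epithelium by 0.03 and 0.08, and Irf1 and Irf8 by -0.11 each. A second Irf1 probe set, built on other transcript records, gave -0.43 ± 0.31 (SE, limma adjusted p = 0.616) there. Between FP_hi and FP_lo the Irf1 probe sets went opposite ways, -0.28 on the one used and 0.20 on the second, and neither passed. Irf7, which amplifies type I interferon production, read 3.89, 4.38 and 4.98 in adenomas. It ran from 3.37 to 4.62 in FP_lo, with a median of 3.75, and read 4.19, 4.70, 4.41 and 4.00 in FP_hi. The groups overlapped, with an adenoma difference of 0.33 ± 0.27 (SE, adjusted p = 0.634) that was 0.053 without Adenoma replicate 3. The FP_hi difference of 0.49 ± 0.26 (SE) did not pass either (adjusted p = 0.401).

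Interferon-induced GTPases, which attack the vacuoles of intracellular pathogens, were represented by Gbp3, Gbp7, Irgm1 and Iigp1. Differences between adenomas and normal epithelium stayed between -0.02 and 0.17, the widest being that of Gbp7 (0.17 ± 0.17 SE, adjusted p = 0.687). Gbp7 read 3.89, 3.80 and 4.18 in adenomas, 3.44 to 4.25 in FP_lo, and 4.04, 3.95, 3.76 and 3.80 in FP_hi. These values overlapped throughout. Irgm1, a regulator of the family and of autophagy, was 0.62 ± 0.34 (SE) lower in FP_hi than in FP_lo without passing (adjusted p = 0.406). It read 4.68, 5.07, 4.75 and 4.39 in FP_hi, and its FP_lo values ran from 4.50 to 6.67 with replicate 3 at the top.

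The chemokines Cxcl9 and Cxcl10 draw T cells through the receptor CXCR3. Cxcl10 read 4.95, 3.73 and 4.02 in adenomas, 3.65 to 4.05 in FP_lo and 4.51, 3.76, 3.59 and 3.68 in FP_hi. Its adenoma difference of 0.39 ± 0.24 (SE, adjusted p = 0.577) came down to 0.026 without Adenoma replicate 1, the only adenoma above the normal range. Cxcl9 read 5.59, 4.60, 4.34 and 4.08 in FP_hi against 3.76 to 4.26 in FP_lo and 3.89 to 4.37 in adenomas. Its FP_hi difference of 0.69 ± 0.25 (SE, adjusted p = 0.364) was 0.38 without FP_hi replicate 1.

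The 3 genes of antigen processing all had lower means in adenomas. Psmb8 and Psmb9 encode catalytic subunits of the immunoproteasome, and Tap1 carries peptides into the endoplasmic reticulum. Tap1 read 4.93 at the lowest, 5.14 at the median and 5.53 at the highest in FP_lo. It read 4.89, 5.24, 5.01 and 5.13 in FP_hi and 4.57, 4.62 and 4.56 in adenomas. All 3 adenoma arrays lay below all 10 normal arrays, with an SD of 0.03 among them. The difference was -0.53 ± 0.14 (SE, adjusted p = 0.139). It passed with limma array weights (-0.58, adjusted p = 0.00959) and without FP_hi replicate 1 (-0.56, adjusted p = 0.0474), and adjusted p-values over the 19 alternatives ran from 0.00959 to 0.856.

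Psmb8 read 5.08, 5.25 and 5.94 in adenomas, 5.91 to 7.66 in FP_lo with a median of 6.44, and 5.93, 7.48, 7.24 and 5.79 in FP_hi. Adenoma replicates 1 and 2 lay below the normal range and replicate 3 inside it. The difference was -1.22 ± 0.43 (SE, adjusted p = 0.318). Psmb9 read 6.27, 6.82 and 6.80 in adenomas, 6.63 to 9.06 in FP_lo with a median of 8.12, and 5.46, 8.49, 8.22 and 7.84 in FP_hi. Here FP_hi replicate 1 was below every adenoma, and the difference of -1.14 ± 0.58 (SE) had an adjusted p of 0.511. With array weights the differences of Psmb8 and Psmb9 were -1.45 and -1.47, with adjusted p-values of 0.0364 and 0.0296, against ranges of 0.0364 to 0.996 and 0.0296 to 0.996 over all alternatives. Between FP_hi and FP_lo Psmb9 differed by -0.54 ± 0.57 (SE, adjusted p = 0.604), which turned to 0.14 without FP_hi replicate 1.

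In the remaining group Parp14, an ADP-ribosyltransferase, had the widest adenoma difference. It read 5.72, 5.42 and 6.11 in adenomas, 4.35 to 5.64 in FP_lo with a median of 5.01, and 5.06, 5.42, 5.05 and 4.39 in FP_hi. Adenoma replicates 1 and 3 lay above all normal arrays, and the difference was 0.77 ± 0.26 (SE, adjusted p = 0.287). Xaf1, a proapoptotic partner of XIAP, read 4.91, 3.86 and 3.85 in adenomas. It ran from 3.38 to 4.14 in FP_lo and read 3.73, 4.16, 3.94 and 4.08 in FP_hi, a difference between normal groups of 0.27 ± 0.23 (SE, adjusted p = 0.521). Ifi35 differed by -0.41 in adenomas and by -0.08 in FP_hi.

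**Figure D4:**
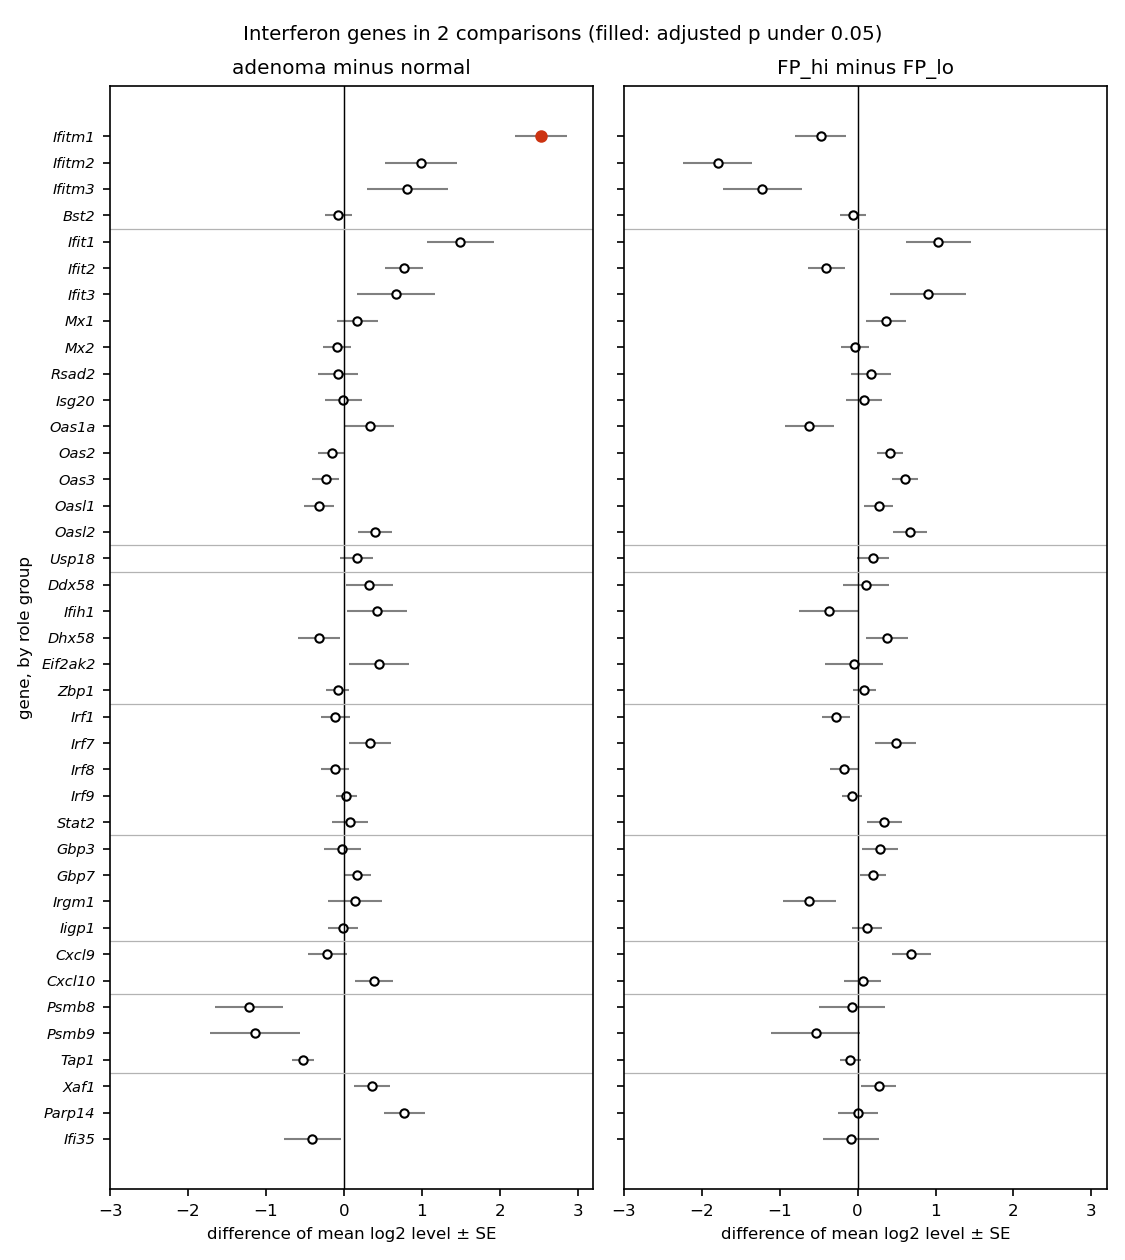
Difference of mean log2 level with its standard error for each of the 39 genes, in role groups, for adenoma minus the average of the normal means (left) and FP_hi minus FP_lo (right). A filled point marks an adjusted p under 0.05. Ifitm1 is the only filled point on the left, at 2.53, and there is none on the right, where Ifitm2 lies lowest at -1.80.

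Between FP_hi and FP_lo epithelium 0 of the 39 genes passed by limma (0% of all probe sets), and 0 passed in any alternative. At an unadjusted p under 0.05 there were 7 (17.9%, against 12.7% of all probe sets). Cxcl9, Ifit1, Oas2, Oas3 and Oasl2 were higher in FP_hi, and Ifitm2 and Ifitm3 lower. The median difference was 0.08 over the 39 genes, 22 of them above 0, and 0.05 over all probe sets, 56.3% of which were. FP_hi and FP_lo arrays did not overlap for Oas3 and Ifitm2 (5.13%, against 2.25% of all). Without FP_hi replicate 1 there were 3 such genes, Ifit2 having joined from below (7.69%, against 3.2% of all).

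Within FP_hi, replicate 2 stood out for a subset of the genes. The array was singled out from counts made for each of the 10 normal arrays, so its own count is a description and not a test. It was the highest of the 10 normal arrays for 12 of the 39 (30.8%, against 7.35% of all probe sets): Ifit1, Ifit3, Oasl1, Oasl2, Rsad2, Usp18, Eif2ak2, Irf7, Stat2, Xaf1, Ifi35 and Ifitm1. Without FP_hi replicate 1 the counts were 14 of 39 and 11.5% of all. Its mean level over the 39 genes was 5.23, against 4.67 to 4.87 in the other FP_hi arrays and 4.69 to 4.95 in FP_lo. In the adenoma arrays the same mean was 5.21, 4.96 and 4.91. FP_hi replicate 2 was also the lowest normal array for Irf1 and Mx1. Of 59 further pathway genes, described below, it was the highest normal array for 9 (15.3%, against 7.35% of all probe sets). Rtp4, an interferon-induced gene among these 9, read 6.91 in FP_hi replicate 2 and 3.10 to 4.11 in the other 9 normal arrays. Samd9l, Trim30a, Cmpk2 and Herc6 of the same list were highest in other normal arrays. The 10 macrophage and dendritic cell markers averaged 5.68 in FP_hi replicate 2 and 4.49 to 5.66 in the other normal arrays, and the 10 T cell markers 4.95, inside the FP_lo range of 4.25 to 5.30. The part of other cells in this pattern was not tested.

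Other genes of the pathway were read from a list of ligands, receptors, signalling proteins and further targets, of which 59 were measured and 0 passed in any comparison. Between adenomas and normal epithelium 7 of the 59 had an unadjusted p under 0.05 (11.9%, against 10.6% of all probe sets), and the median difference was -0.03 (-0.09 over all). Ifnar1, a chain of the type I interferon receptor, read 6.07, 6.17 and 5.49 in adenomas against 4.37 to 5.27 over the normal arrays (0.96 ± 0.22 SE, adjusted p = 0.0799). Samd9l, an interferon-induced restriction factor, read 9.93, 8.42 and 7.77 in adenomas against 4.17 to 7.49 (2.52 ± 0.63 SE, adjusted p = 0.111). The adenoma arrays of both genes lay above all normal arrays.

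Below all normal arrays in adenomas were 3 genes of that list, so that 5 of the 59 did not overlap in either direction (8.47%, against 3.97% of all probe sets). Socs1, a feedback inhibitor of JAK kinases, differed by -0.33, Uba7, the activating enzyme for ISG15, by -0.45, and Ifitm10 by -0.34, with adjusted p-values of 0.434, 0.240 and 0.518. The interferon genes themselves showed no difference that passed, with differences from -0.21 for Ifng to 0.71 for Ifnk over the 5 measured, and adenoma values of Ifnk (4.72, 3.54 and 4.39) inside its normal range. In class I presentation, the proteasome activator genes Psme1 and Psme2 differed by -0.78 and -0.81, and the invariant light chain gene B2m by -0.29. None of these passed. Between FP_hi and FP_lo the lowest p-values in the list were those of Ido1 and Uba7 on the higher side (1.10 and 0.31) and of Jak1 and Ifngr2 on the lower side (-0.88 and -0.60).

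Markers of other cells were read beside these genes, since a picked crypt or adenoma can hold leukocytes. In bulk samples a change in the share of a cell type and a change of RNA per cell cannot be told apart. The leukocyte gene Ptprc rose in adenomas by 0.79 ± 0.16 (SE, adjusted p = 0.0393), with adenoma values of 5.29, 4.77 and 5.07 against 3.75 to 4.67. Of the 10 T cell and 10 macrophage and dendritic cell markers 0 rose (0.884% of all probe sets did), and the median differences were -0.44 and -0.16. The mean T cell marker level was 4.31 to 4.93 in adenomas, 4.88 to 5.96 in FP_hi and 4.25 to 5.30 in FP_lo. The mean macrophage and dendritic cell marker level was 4.48 to 4.73 in adenomas, 4.49 to 5.68 in FP_hi and 4.93 to 5.41 in FP_lo. Single markers of that list went both ways, differing by -1.89 to 0.73 in adenomas. The MHC class II genes H2-Aa and H2-Ab1 among them differed by -1.48 and -1.29. The fibroblast gene Dcn rose by 2.36 (adjusted p = 0.0277), while Col1a1 and Col3a1 differed by -0.04 and -0.10. Tcf4, listed with the plasmacytoid dendritic cell markers, rose by 1.63 (adjusted p = 0.0417), with adenoma values of 7.63, 6.44 and 5.74 against 4.33 to 5.48, while Siglech in the same list differed by -0.08. Ifitm1, Dcn and Tcf4 had the same order over the adenoma arrays, replicate 1 highest and replicate 3 lowest. That order is not particular to them. Ifitm2, Ifitm3, Ifit1, Ifit2 and Usp18 had it too, while Irf7 and Parp14 did not, and its share over all probe sets was not counted. Of the neutrophil and endothelial markers 0 passed (0.884% of all probe sets rose and 0.0256% fell), the widest differences being 0.95 for S100a9 and 0.76 for Cdh5. No marker was listed at 0. The part of these cells in the Ifitm1 and antigen processing results was not tested.

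The promoter letters were set against the measurements as a description. Among measured genes with a window, the 16 with ISRE letters had a median adenoma difference of 0.33, with 12 above 0. The 15 without them had a median of -0.11, with 6 above 0. Of all probe sets 38.1% were above 0. In Ifitm3, Ddx58, Ifih1 and Eif2ak2 the ISRE letters lay only at or after the start, and these genes differed by 0.81, 0.33, 0.43 and 0.45. Against FP_lo the medians with and without ISRE letters were 0.22 and -0.006, with 14 and 7 genes above 0. Between FP_hi and FP_lo the medians were 0.09 and -0.07. The split by GAS letters went the other way. The 11 genes with them had a median adenoma difference of -0.01, with 5 above 0, and the 20 without them 0.23, with 13 above 0. Between FP_hi and FP_lo those medians were -0.08 and 0.22. Ifitm1, the gene that rose, was among those without ISRE letters in this window, as were Tap1 and Psmb9. Several of these genes are neighbours or relatives of each other, so that they are not independent points.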

How the data were processed

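RNA of 13 samples was measured, 1 array each. Per the labels, crypts were picked with capillaries, RNA was extracted with a kit for small amounts and the cDNA amplified and labelled with NuGEN reagents. The authors deposited log2 levels, 1 per array for each of 35556 probe sets, made with Affymetrix software (Expression Console and Transcriptome Analysis Console, per the submitters' processing notes). What is not given in the sources used here is the software version, the background correction and the normalization, and the log2 scale was read from the values. The number of arrays limits the precision.

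The genes and lists were chosen with earlier results of these data known. The 23410 probe sets with a gene symbol were fitted with limma 3.58.1 in R 4.3.3 (lmFit and eBayes, two-sided, all 13 arrays, 1 spread per probe set). The fit was first tested on simulated data, where it recovered 178 of 200 probe sets changed by 2.5 in adenomas. Smaller changes, the size of most differences here, and an array set apart like FP_hi replicate 1 were not simulated. Genes were named in full when called, when groups did not overlap, or when they had the widest difference in their role group. Deviations of same-numbered FP_hi and adenoma arrays correlated at 0.233, 0.102 and 0.220, all over the bound of 0.1. A pairing by replicate number is read from the data and not from the labels. Xist was low in FP_hi replicates 1 to 3 (3.61, 3.05 and 2.65) and high in Adenoma replicates 1 to 3 (9.71, 8.88 and 8.98). Same-numbered arrays thus differ in Xist and do not look like arrays of the same animal. Pairs with FP_lo arrays ran from -0.361 to 0.178. Alternatives were quantile normalization, a filter at a mean level of 5, array weights, all rows, the replicate block, a covariate for arrays with Xist above 6, the mean over probe sets, fits of only the compared groups and leaving out each array. The second Ifitm1 probe set, and counts without FP_hi replicate 1, were added after the values had been seen.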

Additional observations from a re-analysis of the deposited data

Results flagged for a closer look

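Single arrays were compared with the rest of their group in 78 pairs of gene and group (4 or 6 arrays each), of which chance alone would mark about 1 in 20. The level of 1 array lay far from the others in 2 pairs, both in FP_hi replicate 1, the array whose values had the narrowest spread. Isg20 read 5.923 there against 4.731 to 4.819 in the other FP_hi arrays. Dhx58 read 4.908 there against 3.472 to 3.499.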

How the results depend on the processing

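The count of interferon genes past the threshold moved with the model. In adenomas against the average of the normal means it was 1, and it became 5 with array weights (Ifitm1, Ifit2, Psmb8, Psmb9 and Tap1), 0 with the replicate block and 0 with the Xist covariate. Against FP_lo it was 1, and 4 with array weights (Ifitm1, Ifit1, Psmb9 and Tap1), 2 in the fit of only those groups (Ifitm1 and Ifit1), 0 with the block and 0 with the Xist covariate. Against FP_hi it was 1, and 2 with quantile normalization and 2 with array weights (Ifitm1 and Ifit2 in both), and 0 with the block, with the Xist covariate and in the fit of only those groups. Leaving out 1 array at a time gave 1 to 2, 0 to 2 and 1 to 2 genes in these comparisons, and 0 to 0 between FP_hi and FP_lo. The cause of these shifts was not tested. Median differences over the interferon genes moved by less than the spread between arrays, but 3 of them lay on both sides of 0 over all alternatives. They ran from 0.0011 to 0.14 against the normal average, from -0.02 to 0.22 against FP_lo, from -0.06 to 0.12 against FP_hi and from -0.08 to 0.19 between the normal groups, the lowest of the last under the filter on dim probe sets, which left 17 genes. Directions turned for Usp18 in adenomas without Adenoma replicate 1 (-0.15 to 0.41 over the arrays left out), for Usp18 between the normal groups under quantile normalization (-0.012) and for Psmb9 between the normal groups with array weights (0.044) and without FP_hi replicate 1 (-0.87 to 0.14 over the arrays left out). Over all alternatives 25 of the 39 genes kept their direction in adenomas against the normal average and 25 between the normal groups. The 14 that turned in the former had differences of at most 0.33 in size (among them Bst2, Rsad2, Isg20, Ddx58, Irf8 and Cxcl9), and those in the latter of at most 0.54 (among them Ifih1, Eif2ak2, Psmb8 and Psmb9). Over all probe sets the calls in adenomas against the normal average were 207 higher and 6 lower, 186 and 38 with quantile normalization, 692 and 461 with array weights, 344 and 144 without FP_hi replicate 1, 66 and 1 with the block, 28 and 0 with the Xist covariate, and 97 and 4 with the filter on dim probe sets. Against FP_lo the calls over all probe sets numbered 129, 868 with array weights and 343 in the fit of only those groups, and against FP_hi 179, 594 and 46. The filter on dim probe sets moved the median of all probe sets to -0.36 between the normal groups and to 0.32 in adenomas against FP_hi. A fit of only the compared groups has no counterpart for the average of both normal groups. No detection call was used, so for dim genes such as Ifit2 and Mx1 a level near background cannot be told apart from none.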
